A study of Mus musculus with 2 samples.

Results

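The genes described are 9 transcription factors of the primitive streak and the early mesoderm, found by symbol among the 32285 genes listed for each library: *T* (Brachyury), *Eomes*, *Mixl1*, *Gsc*, *Evx1*, *Tbx6*, *Mesp1*, *Mesp2* and *Msgn1*. They were measured by droplet single-cell RNA-seq in E7 mouse embryos, in 1 library of pooled controls and 1 library of pooled *Yap1* cKO embryos. The question the comparison addresses is how loss of *Yap1*, a transcriptional co-activator of the Hippo pathway, goes along with expression of the genes of gastrulation in the epiblast and its descendants. The control pool held 4 embryos of the genotype Sox2cre:Yapflox/+ and the *Yap1* cKO pool 3 embryos of the genotype Sox2cre:Yapflox/flox, so the controls described for this experiment carry the Cre and 1 floxed allele as well. The sample labels call the control wild type, and the methods on mice describe controls as floxed littermates without Cre. Sox2-Cre recombines in the epiblast and its descendants and largely spares the extraembryonic lineages that arise earlier. The Cre came from fathers that also carried a floxed allele, and the methods state that the paternal *Yap1* allele was probably lost in extraembryonic tissue of the floxed embryos, so the extraembryonic ectoderm and the visceral endoderm are not untouched controls. Embryos were pooled before dissociation, so that cells cannot be traced to an embryo and each genotype is 1 sample. No test was therefore made between the genotypes.

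Gastrulation begins when epiblast cells at the posterior side enter the primitive streak, leave the epithelium and move out as mesoderm and definitive endoderm. Nodal, Wnt and Fgf signals start this step, and T-box factors act early in it: *Eomes* and *T* open the way to mesoderm and endoderm, while *Mixl1*, *Gsc* and *Evx1* encode homeobox factors of the streak. *Mesp1*, *Mesp2* and *Msgn1* encode basic helix-loop-helix factors of the emerging mesoderm, and *Tbx6* encodes a T-box factor of the paraxial mesoderm. *Eomes* also acts in trophoblast and in visceral endoderm, and *T* and *Gsc* are later known for the notochord and the anterior streak.

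The members lie on 6 chromosomes of GRCm38, by GENCODE M21 matched on the Ensembl identifier. *T* (ENSMUSG00000062327) spans chr17:8434423-8442496, *Eomes* (ENSMUSG00000032446) chr9:118478212-118486132 and *Mixl1* (ENSMUSG00000026497) chr1:180693043-180697034. *Gsc* (ENSMUSG00000021095) spans chr12:104471209-104473330 and *Msgn1* (ENSMUSG00000047002) chr12:11208360-11208972. *Mesp1* (ENSMUSG00000030544) at chr7:79792241-79793788 and *Mesp2* (ENSMUSG00000030543) at chr7:79810727-79813439 are neighbouring genes on opposite strands, and *Tbx6* (ENSMUSG00000030699) lies on the same chromosome at chr7:126781483-126785560. *Evx1* (ENSMUSG00000005503) at chr6:52313498-52318378 overlaps *Evx1os* on the other strand, and *Eomes* overlaps *Gm33460* in the same way. The sources used here do not say whether counting used the strand, so reads of these partners may not be kept apart.

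Promoter sequences of RefSeq on GRCm38.p6, from 250 bases before to 50 bases after the start, were found for 8 of the 9 members, and *Mixl1* had no entry. They were searched on both strands for a T-box core (TCACACC), for the longer T-box site that contains it (TCACACCT), for a TCF/LEF core (CTTTGA) and for TAATCC, the letters bound by paired-type homeobox proteins such as GSC. The E-box (CANNTG), the site of basic helix-loop-helix factors, was searched as well. The promoters of *Mesp1* and *T* are shown because these are the members with a T-box or TCF/LEF match that gave enough UMIs to compare. Capitals mark every match to the T-box core and to the TCF/LEF core, which reads TCAAAG where it lies on the other strand.
*Mesp1*, chr7:79793541-79793840, minus strand: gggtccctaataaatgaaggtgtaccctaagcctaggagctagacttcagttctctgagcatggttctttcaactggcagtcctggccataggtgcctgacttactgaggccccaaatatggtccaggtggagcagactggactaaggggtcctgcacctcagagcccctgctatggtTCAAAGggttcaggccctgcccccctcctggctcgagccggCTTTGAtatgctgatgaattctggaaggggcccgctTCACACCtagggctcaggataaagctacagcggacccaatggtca
*T*, chr17:8434173-8434472, plus strand: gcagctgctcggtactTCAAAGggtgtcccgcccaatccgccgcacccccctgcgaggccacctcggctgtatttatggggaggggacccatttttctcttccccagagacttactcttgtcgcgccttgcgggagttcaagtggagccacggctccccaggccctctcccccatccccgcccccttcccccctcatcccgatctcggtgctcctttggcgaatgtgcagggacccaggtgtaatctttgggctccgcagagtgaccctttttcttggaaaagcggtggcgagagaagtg
The *Mesp1* promoter held the longer T-box site 5 bases after the start and the TCF/LEF core at 72 and 31 bases before it. The *T* promoter held the TCF/LEF core 234 bases before the start and no T-box core. *Msgn1* held the TCF/LEF core at 202 and 143 bases before the start, and the other 5 members held neither of them. An E-box was found in 6 of the 8 promoters and TAATCC in none. Of all 32851 promoters of this length, 3.98% held the T-box core, 1.28% the longer site, 16% the TCF/LEF core, 7.06% TAATCC and 72.3% an E-box. The matches describe these windows only, and binding was not measured.

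After barcodes with fewer than 5000 detected genes and doublet calls were set aside, 790 control and 860 *Yap1* cKO cells remained, with a median of 75696 and 80559 unique molecular identifiers (UMIs, each standing for 1 captured transcript). The libraries shared 2 cell barcodes. Both pools are labelled female, but 408 control and 134 *Yap1* cKO cells carried Y-linked UMIs without *Xist*, against 333 and 667 with *Xist* alone, so the pools held embryos of both sexes in unlike shares. Cells were assigned to populations by thresholds on the summed expression of marker lists that contain none of the 9 members. Own markers were raised in every gate, 6 of 6 in the epiblast gate, 3 of 5 in the streak gate and 6 of 8 in the nascent mesoderm gate. The gates are thresholds on the sums of these markers, so this followed largely from the gating and is no independent check. *Cdx1* and *Nkx1-2* were the streak markers not raised. The 10 leading genes of the node and endoderm gate also included *Cer1* and *Lefty1*, markers of the anterior visceral endoderm. The summed visceral endoderm list stood at 9.23 and 15.6 in the epiblast gate, 9.04 and 10.8 in the streak gate and 8.65 and 26.6 in the nascent mesoderm gate, in CPM, the UMIs of a gene or list per 1000000 UMIs of the same cells. Here and below, paired values give the control first and *Yap1* cKO second. The streak list was mostly *Fst* in the streak gate, with 408.9 of 491.7 and 351.5 of 408.5 CPM. *Lhx1* gave 552.3 of 934.6 and 372.9 of 717.7 CPM of the mesoderm list in the nascent mesoderm gate. These gates therefore lean largely on 1 gene each, and both genes were lower there in the *Yap1* cKO library. *Yap1* itself had 29.7 and 1.22 CPM in the epiblast gate, a ratio of 0.0411 (0.0266 to 0.0609). The ratio lay nearer to 1 in the extraembryonic gates. *Yap1* had 31.6 and 27.3 CPM in the visceral endoderm gate, with the ratio at 0.866 (0.731 to 1.03), 24.9 and 18.4 CPM in the extraembryonic ectoderm, at 0.741 (0.629 to 0.872), and 41.4 and 14.3 CPM in the anterior visceral endoderm, at 0.346 (0.186 to 0.623). Values in parentheses are exact 95% intervals, Poisson for a CPM and conditional binomial for a ratio of *Yap1* cKO to control. They take each UMI as independent and cover counting error only, and not differences between cells of a library, embryos, pools or libraries. A lower CPM of a population can come from fewer cells with the transcript or from less of it in each cell, and both kinds of value are therefore given.

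Each member had its own distribution over the populations. *T* was highest in the nascent mesoderm gate of either library, at 158 CPM (147 to 169) and 201 CPM (191 to 211). In the control it was next highest in the node and endoderm gate at 123 CPM (111 to 136) and in the blood and endothelium gate at 121 CPM (108 to 136), which did not differ beyond counting error. The streak gate followed at 90.4 CPM and the mesoderm gate defined by *Foxf1* and *Hand1* at 61.7 CPM, each with intervals apart from its neighbours. *T* also stood at 19.8 CPM (17.8 to 22.1) in control extraembryonic ectoderm and at 15.1 CPM (13 to 17.3) in its *Yap1* cKO counterpart. It was at 5.48 and 1.48 CPM in the visceral endoderm gate, and 0 and 1 of its UMIs fell in the anterior visceral endoderm gate. The control epiblast gate, with 7 UMIs or 0.371 CPM (0.149 to 0.765), was the lowest of the gates in which *T* was seen.

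**Figure D1:**
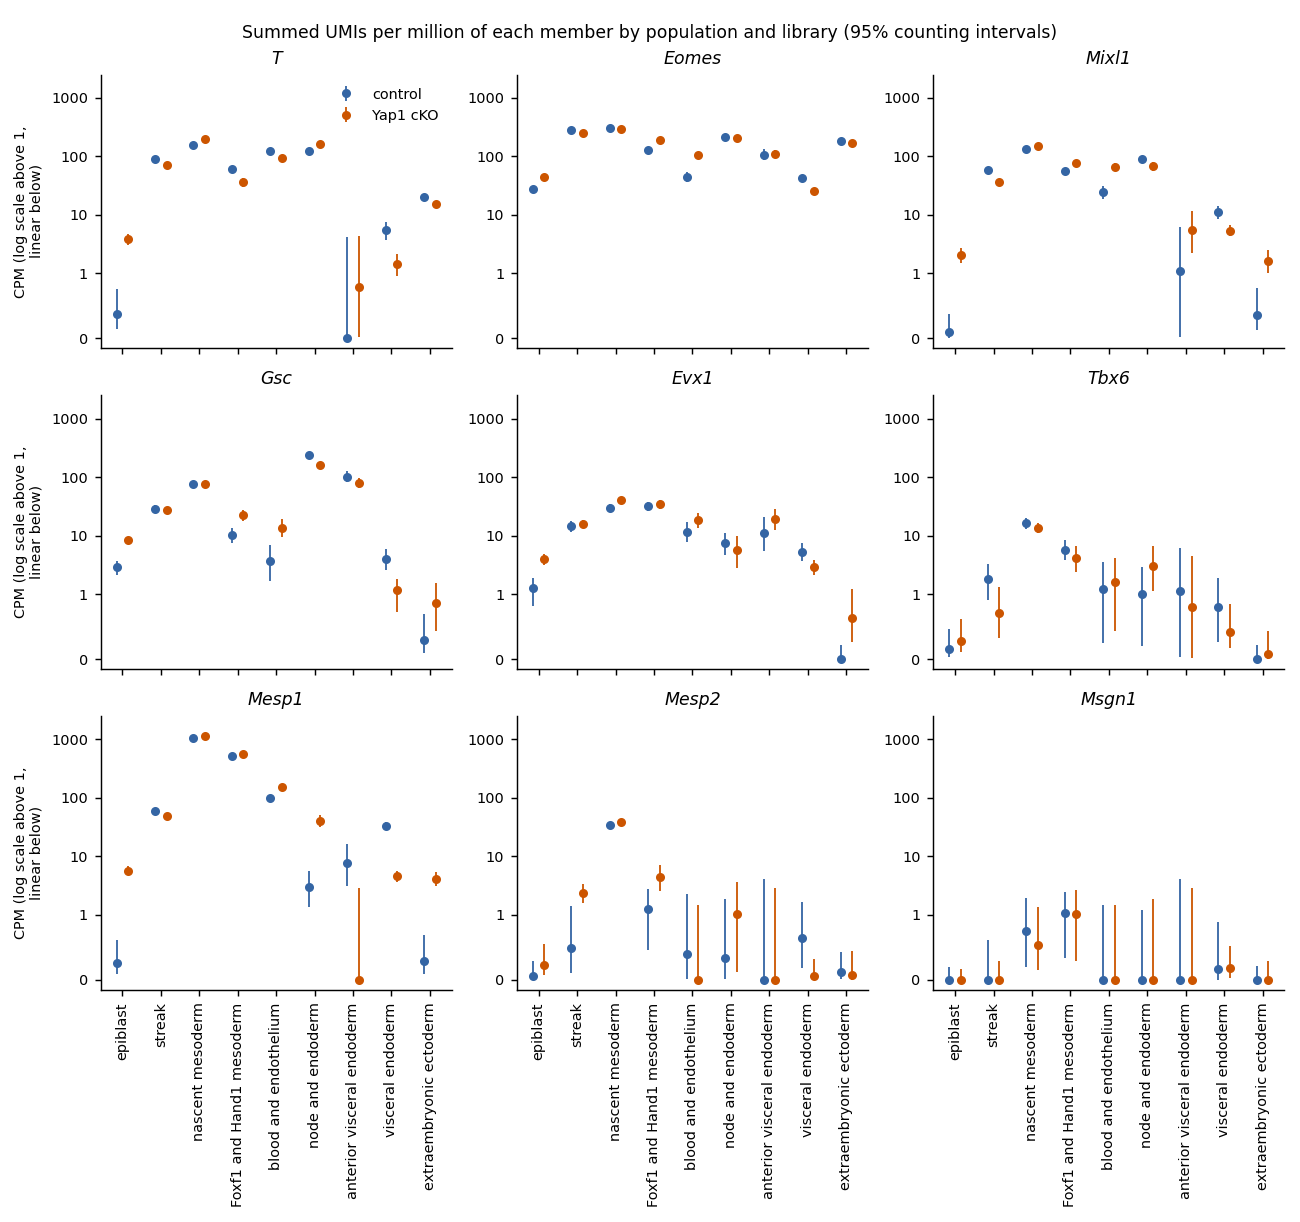
Each panel plots 1 member, with the 9 populations on the horizontal axis and CPM on the vertical axis, which is logarithmic above 1 and linear below. Points are the summed level of the control (blue) and *Yap1* cKO (orange) libraries and bars are exact 95% Poisson intervals, and most pairs of points lie close together, with *T*, *Mixl1* and *Mesp1* in the epiblast gate among the pairs that lie apart.

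*Eomes* was present in every population. Its control levels in the nascent mesoderm gate, 303 CPM (288 to 318), and in the streak gate, 280 CPM (267 to 294), had overlapping intervals. They were followed by the node and endoderm gate at 213 CPM, the extraembryonic ectoderm at 181 CPM and the *Foxf1* and *Hand1* mesoderm at 127 CPM (117 to 138), which overlapped the anterior visceral endoderm at 107 CPM (86.9 to 131). Blood and endothelium at 44.4 CPM and visceral endoderm at 43.2 CPM did not differ beyond counting error, and the epiblast gate was lowest at 28.0 CPM (25.7 to 30.5). The extraembryonic ectoderm, where *Eomes* is known as a trophoblast factor, held 3072 of its 8649 control UMIs.

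*Mixl1* was highest in the same gate as *T*. It was at 136 CPM in control nascent mesoderm, 89.2 CPM in node and endoderm, and 58.0 CPM (52.1 to 64.4) and 55.2 CPM (48.7 to 62.3) in the streak and the *Foxf1* and *Hand1* mesoderm, which did not differ beyond counting error. In control extraembryonic ectoderm it was at 0.353 CPM, and in the control epiblast gate at 0.106 CPM from 2 UMIs.

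*Gsc*, the organizer homeobox gene, was highest in the node and endoderm gate of both libraries, at 238 CPM (221 to 257) and 162 CPM (145 to 181). In the control, anterior visceral endoderm at 102 CPM (81.9 to 125) and nascent mesoderm at 75.9 CPM (68.7 to 83.7) came next with overlapping intervals, and the streak gate followed at 28.4 CPM. *Evx1*, a homeobox gene of the posterior streak, was spread more evenly: the *Foxf1* and *Hand1* mesoderm at 31.5 CPM (26.6 to 37) and the nascent mesoderm at 29.7 CPM (25.3 to 34.7) of the control overlapped, as did streak at 14.5 CPM (11.6 to 17.8) and blood and endothelium at 11.7 CPM (7.85 to 16.8). No *Evx1* UMI was seen in control extraembryonic ectoderm and 8 in its *Yap1* cKO counterpart, at least 3.55-fold higher against a floor of 3 counts in the control library. Of these 8, 4 came from 1 cell.

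The *Mesp* genes and *Tbx6* were the members most restricted to mesoderm. *Mesp1*, a marker of the earliest mesoderm and of heart precursors, was at 1045 CPM (1017 to 1073) and 1140 CPM (1116 to 1164) in nascent mesoderm. It was at 508 and 571 CPM in the *Foxf1* and *Hand1* mesoderm, 99.0 and 151 CPM in blood and endothelium, and 60.3 and 49.1 CPM in the streak. Its paralog *Mesp2* was at 33.7 and 38.1 CPM in nascent mesoderm, and in every other gate it stayed at or below 1.27 and 4.43 CPM. *Tbx6* was at 16.4 and 13.7 CPM in nascent mesoderm and at 5.71 and 4.17 CPM in the *Foxf1* and *Hand1* mesoderm. *Msgn1*, a factor of presomitic mesoderm, gave only 10 control and 11 *Yap1* cKO UMIs in all cells, and its differences were not detectable at this depth. Whether reads were split between the paralogs *Mesp1* and *Mesp2* was not tested.

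Over all 6 embryonic gates together the libraries were close. *T* was at 58.2 and 64.0 CPM, *Eomes* at 128 and 156 CPM, *Mixl1* at 41.2 and 44.8 CPM and *Mesp1* at 212 and 240 CPM. The 9 members together gave a ratio of 1.13 (1.11 to 1.16). With a fold of 1.5 as the rule of size and a minimum of 20 UMIs over both libraries, none of the 8 members with enough UMIs was past it in either direction, where 3.58% of 16743 genes were higher in the *Yap1* cKO library and 7.01% lower. The highest ratios were those of *Mesp2*, 1.45 (1.21 to 1.74), and *Evx1*, 1.35 (1.2 to 1.51), and the lowest that of *Tbx6*, 0.872 (0.685 to 1.11).

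In the epiblast gate the members were higher in the *Yap1* cKO library, by an amount that changed with the limits of the gate. *T* had 7 UMIs in 6 of 231 control cells and 82 UMIs in 20 of 211 *Yap1* cKO cells, or 0.371 and 3.85 CPM, with the ratio at 10.4 (4.81 to 26.6). With all gate thresholds multiplied by 2 the ratio of *T* was 2.54 (1.86 to 3.51). *Mixl1* had 2 UMIs in 2 control cells and 44 in 25 *Yap1* cKO cells, a ratio of 19.5 (5.08 to 166). *Evx1* was at 1.27 and 3.99 CPM and *Gsc* at 2.87 and 8.31 CPM, ratios of 3.13 (1.97 to 5.16) and 2.90 (2.13 to 4.01). *Eomes*, the only member seen in most cells of this gate, was at 28.0 and 45.1 CPM, with the ratio at 1.61 (1.45 to 1.79), and was found in 162 and 161 cells. *Mesp1* had 5 and 122 UMIs, of which 1 *Yap1* cKO cell held 103, and without the cell with the most UMIs in each library its ratio of 21.6 became 4.21. *Tbx6* had 3 and 6 UMIs, *Mesp2* 1 and 5, and *Msgn1* none in either library. The summed level of all 9 was 33.1 and 69.5 CPM, with the ratio at 2.10 (1.91 to 2.31), and *Eomes* gave 528 of the 624 control UMIs and 960 of the 1481 *Yap1* cKO UMIs. Of Y-bearing cells, with Y-linked UMIs and no *Xist*, the gate held 121 and 41. Their ratios were 9.68 (4 to 28.3) for *Evx1*, 2.50 (2.09 to 3) for *Eomes* and 2.75 (1.59 to 4.87) for *Gsc*. In the 101 and 160 cells with *Xist* alone they were 1.61 (0.926 to 2.93), 1.19 (1.03 to 1.375) and 2.66 (1.76 to 4.16), in the same order. The part of the unlike sex shares in the epiblast values was not tested.

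All 6 members with at least 20 UMIs were past 1.5-fold in the epiblast gate, where 4.42% of 14600 genes were higher by that much and 6.38% lower. Of these 6, *T*, *Mixl1* and *Mesp1* passed the minimum only through the *Yap1* cKO library and so had to differ. *Eomes*, *Gsc* and *Evx1* passed it in the control library alone. The median UMI count of the gate was 72403 and 90081, so shares of cells were taken after every cell was thinned to 38000 UMIs, which left out 3 and 6 shallower cells. *T* was then found in 1.75% (0.48 to 4.43) and 5.37% (2.71 to 9.4) of the thinned cells, by Clopper-Pearson intervals, against 2.60% and 9.48% before thinning. *Mixl1* was found in 0.439% and 7.80%, *Evx1* in 2.63% and 6.83%, and *Gsc* in 11.4% and 16.1%, against 0.866% and 11.8%, 3.46% and 11.4%, and 16% and 27% before thinning. For comparison, *Mixl1* was found in 2.33% of control and 5.21% of *Yap1* cKO extraembryonic ectoderm cells, which are not known to express it, at median depths of 84348 and 106990 UMIs. The share of *Mixl1* in the epiblast gate was below that level in the control, and its interval of 4.53 to 12.4% in the *Yap1* cKO library included it. In the visceral endoderm gate *Mixl1* was found in 22.97% and 15.9%, above the epiblast gate of either library, so the reading depends on the gate chosen for comparison. For *T* the share in the visceral endoderm gate was 5.41% and 3.85% at median depths of 76180 and 75003 UMIs, above the control share of the epiblast gate and inside the *Yap1* cKO interval. In the visceral endoderm gate, 9 control cells that also passed a streak, mesoderm or blood threshold held 79.4% of the control *T* UMIs. The 18 such *Yap1* cKO cells held 24%, and what cells these were was not tested. In the anterior visceral endoderm gate *T* was found in 0 of 16 and 0 of 17 thinned cells, which allows shares of up to 18.8% and 17.6% of cells with a UMI.

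**Figure D2:**
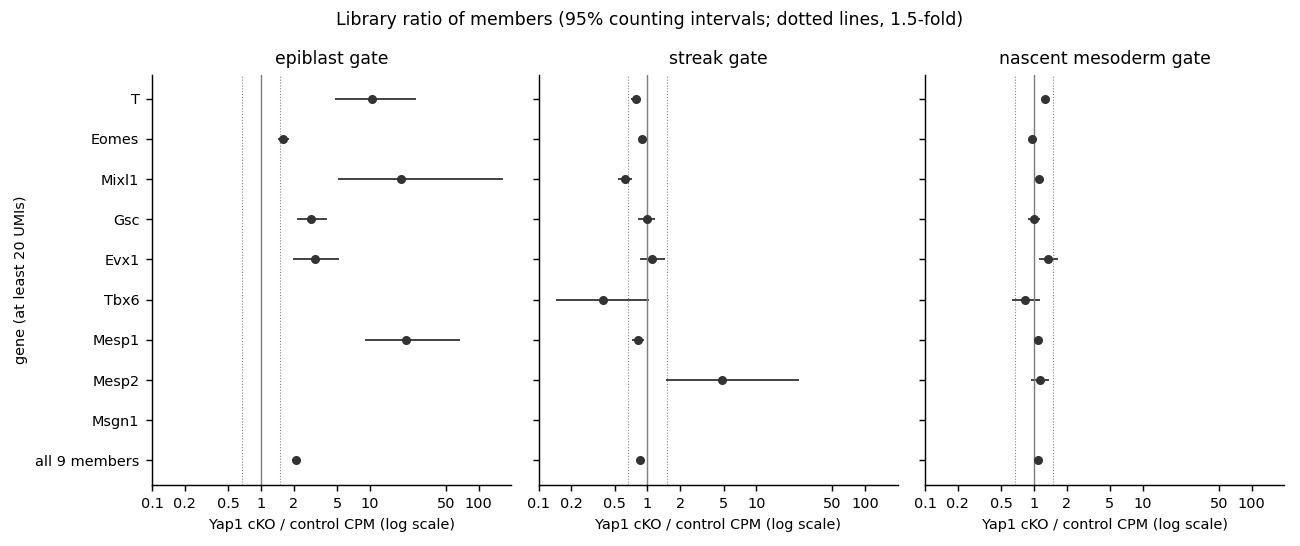
Ratio of *Yap1* cKO to control CPM (horizontal, logarithmic axis) for each member with at least 20 UMIs over both libraries and for the sum of all 9, in the epiblast, streak and nascent mesoderm gates. Bars are exact 95% intervals of counting error, the grey line marks a ratio of 1 and the dotted lines 1.5-fold either way; all 7 points lie right of 1 in the epiblast gate, while in nascent mesoderm every point lies between the dotted lines.

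The UMIs of several members lay in epiblast-gate cells with low levels of the epiblast list. The 20 *Yap1* cKO cells with *T* had a median of 1003 CPM of the epiblast list and 57.3 CPM of the streak list, and the 191 without it 1589 and 9.32 CPM. Among cells with at least 1000 CPM of the epiblast list, 221 control and 174 *Yap1* cKO cells, *T* had 3 and 11 UMIs, a ratio of 3.82 (1.01 to 21.3), and *Eomes* was at 24.4 and 33.3 CPM, with the ratio at 1.36 (1.2 to 1.55). *Gsc* was at 2.96 and 5.06 CPM there, a ratio of 1.71 (1.2 to 2.46), and *Mesp1* had 4 and 5 UMIs. The 37 *Yap1* cKO cells under that level held 71 of the 82 *T* UMIs, 77 of the 85 *Evx1* UMIs and 117 of the 122 *Mesp1* UMIs of the gate. The corresponding control cells numbered 10, with *T* at 4.39 CPM (1.2 to 11.3) against 17.3 CPM (13.5 to 21.8), *Eomes* at 99.98 CPM (80.5 to 123) against 94.5 CPM (85.4 to 104), and *Evx1* at 23.1 CPM (14.3 to 35.3) against 18.8 CPM (14.8 to 23.5). The intervals of *Eomes* and *Evx1* overlapped between the libraries at that position. Those of *T*, of *Gsc* at 1.10 and 21.9 CPM, of *Mixl1* with 0 and 32 UMIs and of *Mesp1* with 1 and 117 UMIs did not, the last through 1 cell. In the whole *Yap1* cKO epiblast gate 1 cell held 17 of the 82 *T* UMIs, 1 held 38 of the 177 *Gsc* UMIs and 1 held 9 of the 44 *Mixl1* UMIs. The intervals at that position were not taken without these cells.

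Adding *Fgf8* and *Wnt3*, which the study compares between the genotypes, to the list that defines the streak moved more of these cells out of the epiblast gate. The ratio of the summed members there was then 1.46 (1.27 to 1.68), that of *Eomes* 1.06 (0.894 to 1.254) and that of *Gsc* 0.646 (0.373 to 1.09). *Mixl1*, with 2 and 12 UMIs, kept a ratio of 7.59 (1.69 to 69.8), *Evx1*, with 4 and 11, one of 3.48 (1.03 to 14.97), and *T*, with 1 and 5, one of 6.32 (0.707 to 299), all 3 now under the minimum of 20 UMIs. *Mesp1*, with 4 and 107 UMIs at 33.8 (12.8 to 126), was the 1 member with enough UMIs past 1.5-fold upwards, and *Gsc* the 1 downwards. *Mesp1* had enough UMIs only through the *Yap1* cKO library, where 1 cell held 103 of the 122 *Mesp1* UMIs of the gate as reported. The share of all genes past the fold was not taken with the longer streak list. How much of the difference lay in the level of a cell and how much in where the gate parts cells cannot be told apart.

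Within the streak gate *T* was lower in the *Yap1* cKO library, at 90.4 and 71.3 CPM, with the ratio at 0.789 (0.709 to 0.879). *Mixl1* was at 58.0 and 36.0 CPM, with the ratio at 0.621 (0.539 to 0.715), and *Eomes* at 280 and 252 CPM, with the ratio at 0.897 (0.846 to 0.952). *Gsc* at 28.4 and 27.9 CPM and *Evx1* at 14.5 and 15.99 CPM had intervals that included a ratio of 1. *Mesp1* was at 60.3 and 49.1 CPM, but 1 control cell held 35.1% of its UMIs, and without the cell with the most UMIs in each library its ratio of 0.814 became 1.01. *Mesp2* had 3 UMIs in 2 control cells and 30 UMIs in 17 *Yap1* cKO cells, a ratio of 4.79 (1.49 to 24.6), and *Tbx6* had 11 and 9 UMIs, a ratio of 0.392 (0.144 to 1.04). *Mesp2* was the 1 member past 1.5-fold upwards, having passed the UMI minimum only through the *Yap1* cKO library, and *Mixl1* and *Tbx6* were the 2 downwards, beside 5.07% and 5.92% of 12973 genes. With Leiden clusters in place of the gates the ratio of *Mixl1* was 1.01 (0.885 to 1.16) and that of *Eomes* 0.987 (0.934 to 1.04). With all gate thresholds multiplied by 0.5 that of *T* was 1.16 (0.984 to 1.38), so these lower levels depended on how the cells were divided.

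After thinning, the shares of streak-gate cells with a member had overlapping intervals for every member. The share of cells with *T* was 50.6% (39 to 62.2) and 48.8% (39.9 to 57.8), and that with *Mixl1* 46.8% and 41.9%, against 58.8% and 64.7%, and 51.2% and 50.4%, before thinning. *Mesp2* was found in 0 of 77 control cells, where a limit of 3 counts allows up to 3.90% of thinned cells with a UMI, and in 9 of 129 *Yap1* cKO cells or 6.98% (3.24 to 12.8), and unthinned in 2.5% and 12.8%. The lower *T* of this gate was seen in Y-bearing cells, 43 and 23 in number, at 109 and 35.6 CPM, with the ratio at 0.326 (0.26 to 0.405). In the 34 and 107 Xist-bearing cells *T* was at 73.7 and 81.6 CPM, with the ratio at 1.11 (0.948 to 1.3). *Mixl1* behaved alike, with 0.267 (0.2 to 0.352) in Y-bearing and 1.09 (0.878 to 1.37) in Xist-bearing cells. The part of the unlike sex shares of the pools in the streak values was not tested.

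In the nascent mesoderm gate none of the 8 members with enough UMIs was past 1.5-fold, where 6.43% of 11924 genes were higher and 5.18% lower. *Mesp1* had a ratio of 1.09 (1.06 to 1.13), *Mixl1* of 1.11 (1.01 to 1.22), *T* of 1.27 (1.17 to 1.39) and *Evx1*, at 29.7 and 40.4 CPM, of 1.36 (1.12 to 1.66). *Eomes*, *Gsc*, *Tbx6* and *Mesp2* had intervals that included 1. The summed members were at 1797 and 1954 CPM, with the ratio at 1.09 (1.06 to 1.12). *T* was found in 79.4% and 79.3% of the thinned cells and *Mesp1* in 94.1% and 96.3%, and in 89.9% and 88.4%, and 92.8% and 96.5%, of the unthinned ones.

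The other populations showed larger differences in single members, on fewer cells. In the *Foxf1* and *Hand1* mesoderm, with 65 control and 49 *Yap1* cKO cells, *T* was at 61.7 and 36.3 CPM, with the ratio at 0.588 (0.477 to 0.721), and 1 cell held 25.7% and 25.2% of its UMIs in the 2 libraries. There *Eomes* was at 127 and 187 CPM, with the ratio at 1.47 (1.32 to 1.64), and *Gsc* at 10.1 and 22.2 CPM, with the ratio at 2.19 (1.52 to 3.18). Of 8 members 2 were past 1.5-fold upwards, *Gsc* and *Mesp2* with 6 and 17 UMIs, neither library alone reaching the minimum, and 1 downwards, beside 6.19% and 7.12% of all genes tested. In blood and endothelium, with 27 cells in each library, *Eomes* was at 44.4 and 107 CPM, with the ratio at 2.40 (1.92 to 3.03), and *Mixl1* at 24.2 and 66.8 CPM, with the ratio at 2.76 (2.04 to 3.77), while *T* was at 121 and 92.8 CPM, with the ratio at 0.766 (0.642 to 0.912). Of 6 members 5 were past the fold upwards and 0 downwards, beside 11% and 5.76% of all genes. Of the 5, *Gsc* with 9 and 34 UMIs reached the UMI minimum only through the *Yap1* cKO library, and *Evx1*, at 1.57 (0.966 to 2.59), had an interval that included 1. In this gate 1 cell held 40% and 19.2% of the *Mixl1* UMIs, 19.1% and 22.1% of those of *Eomes*, and 22.2% and 32.4% of those of *Gsc*. For *Mesp1*, at a ratio of 1.52, the shares were 19.6% and 25.7%, and for *Evx1* 20.7% and 26.1%. The count past the fold was not taken without these cells.

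In the node and endoderm gate, with 37 and 26 cells, *Gsc* had a ratio of 0.679 (0.593 to 0.776), *T* of 1.31 (1.13 to 1.53) and *Eomes* of 0.977 (0.861 to 1.11). The gate held 15 and 1 Y-bearing cells. In its 21 and 22 Xist-bearing cells the ratio of *T* was 2.06 (1.66 to 2.56), that of *Gsc* 0.683 (0.582 to 0.8) and that of *Eomes* 0.997 (0.85 to 1.17). *Mesp1* had 9 UMIs in 5 control cells and 80 in 5 *Yap1* cKO cells, 42 of them in 1 cell, and, with enough UMIs only through the *Yap1* cKO library, was the only 1 of 6 members past 1.5-fold, beside 6.75% of all genes upwards and 8.95% downwards. In the anterior visceral endoderm gate, with 17 cells in each library, *Eomes* was at 107 and 111 CPM and *Gsc* at 102 and 79.5 CPM, both with intervals that included a ratio of 1. *Evx1*, with 10 and 24 UMIs and a ratio of 1.71 (0.787 to 4) that did not differ beyond counting error, was the 1 member of 3 past the fold there, upwards and with enough UMIs only through the *Yap1* cKO library, beside 8.9% of all genes upwards and 7.32% downwards.

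The extraembryonic lineages differed as well. In the visceral endoderm gate all 6 members with enough UMIs were lower in the *Yap1* cKO library by at least 1.5-fold, beside 7.43% of 12557 genes, where 5.26% were higher. *Mesp1* was at 33.3 and 4.55 CPM, with the ratio at 0.136 (0.104 to 0.178), and *Eomes* at 43.2 and 25.3 CPM, with the ratio at 0.585 (0.501 to 0.684). The *Mesp1* UMIs came from 9 and 19 cells, and 1 cell held 33.8% and 32.5% of them. Of the 80 control cells of that gate, 9 also passed a streak, mesoderm or blood threshold, as did 18 of 206 *Yap1* cKO cells, and they held 96% and 90% of its *Gsc* UMIs and 79.4% and 24% of its *T* UMIs. Without them *T* had a ratio of 0.946, *Mixl1* of 0.731, *Eomes* of 0.625 and *Mesp1* of 0.216, and *Gsc* was left with 1 and 2 UMIs. In extraembryonic ectoderm *Eomes* had a ratio of 0.936 (0.886 to 0.989) and *T* of 0.759 (0.632 to 0.908). *Mesp1* had 5 and 53 UMIs there, 37 of them in 1 *Yap1* cKO cell, and it and *Mixl1* with 6 and 21 UMIs were the 2 of 4 members past the fold, both upwards and both with enough UMIs only through the *Yap1* cKO library, beside 5.61% of all genes upwards and 4.55% downwards.

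To compare the libraries at like positions, the cells of the epiblast, streak and nascent mesoderm gates were ranked by the ratio of the streak and mesoderm lists to the epiblast list and cut into 5 bins of equal cell number, the first nearest to epiblast. *Eomes* was already at 17.2 and 14.9 CPM in bin 1 and at 20.9 and 27.3 CPM in bin 2, and reached 91.2 and 105 CPM in bin 3. *T* was at 1.63 and 3.41 CPM in bin 3 and at 90.03 and 74.99 CPM in bin 4. *Mixl1* in the control had 0 UMIs in bin 3 and 57.1 CPM in bin 4, and *Gsc* 4.06 and 38.5 CPM. *Mesp1* and *Mesp2* came last, with 22.4 and 0.252 CPM in bin 4 and 1009 and 31.3 CPM in bin 5 of the control.

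**Figure D3:**
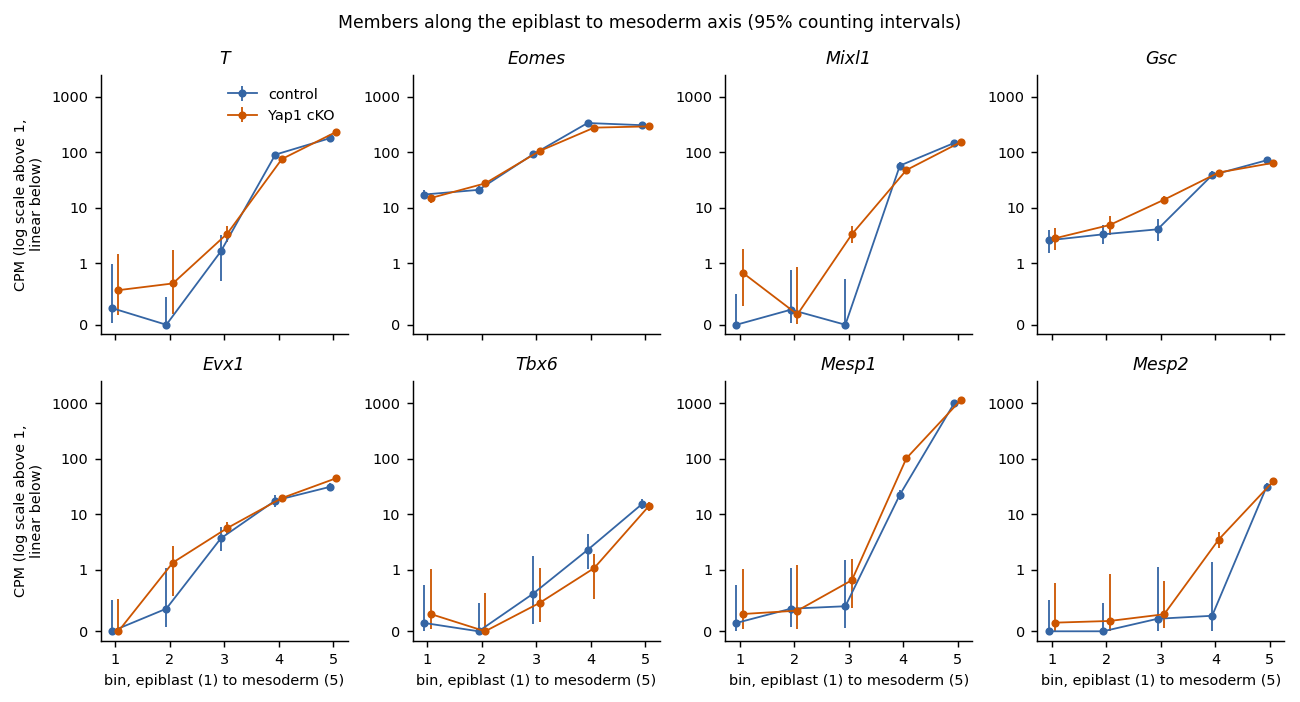
Each panel plots the CPM of 1 member (vertical axis, logarithmic above 1 and linear below) in 5 bins of equal cell number, from epiblast (1) to mesoderm (5), for the control (blue) and the *Yap1* cKO library (orange), with exact 95% Poisson intervals. The lines of *Eomes* lie close together, while *Mixl1* and *Gsc* in bin 3 and *Mesp1* and *Mesp2* in bin 4 are higher in the *Yap1* cKO library.

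The sum of the members, mostly *Eomes*, differed by less than counting error in bin 1, at 20.3 and 19.8 CPM, with the ratio at 0.973 (0.768 to 1.23). *Mixl1* had 0 and 6 UMIs in that bin, with the lower end of its ratio at 1.22. The summed members were higher in the *Yap1* cKO library in bin 2, at 1.38 (1.14 to 1.69), and bin 3, at 1.30 (1.17 to 1.44), close to 1 in bin 4, at 1.01 (0.96 to 1.06), and at 1.11 (1.08 to 1.13) in bin 5. In bin 3 *Gsc* was at 4.06 and 13.9 CPM, with the ratio at 3.42 (2.14 to 5.76), and *Mixl1* had 0 and 36 UMIs, at least 5.44-fold higher against a floor of 3 counts in the control library. In bin 4 *Mesp1* was at 22.4 and 101 CPM, with the ratio at 4.54 (3.65 to 5.7), and *Mesp2* had 1 and 36 UMIs, a ratio of 13.8 (2.33 to 562). In the same bin *T* had a ratio of 0.833 (0.734 to 0.947) and *Eomes* of 0.825 (0.773 to 0.881). By gate, *Mesp1* had a ratio of 0.814 in the streak, or 1.01 without the top cells. The lists in the score differed between the libraries, and *Fst* and *Lhx1* gave most of the streak and mesoderm lists in the gates these define. In the nascent mesoderm gate the mesoderm list was at 935 and 718 CPM and the epiblast list at 107.5 and 175.7 CPM. Whether a bin held like cells in both libraries was not tested. The median position of the cells in bin 4 was −0.176 and −0.314, on the log2 scale of that ratio, and in bin 3 it was −3.21 and −3.02, so that cells lay further towards mesoderm in the *Yap1* cKO library in bin 3 and less far in bin 4.

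Within single cells the detection of some members was nested. The shares below pool several gates, and a scarcer transcript is missed more often at a given depth. The part of gate and level in the nesting was not tested. Over the epiblast, streak and nascent mesoderm gates, with cells thinned to 38000 UMIs, 373 control and 416 *Yap1* cKO cells were compared. *Eomes* was found in all 97 control cells with *T*, which bounds its share from below at 96.3%, and in 135 of 139 such *Yap1* cKO cells or 97.1% (92.8 to 99.2). Cells without *T* had *Eomes* in 61.6% and 69.0%. *T* itself was found in 36.3% of control and 41.4% of *Yap1* cKO cells with *Eomes*, and among cells without *Eomes* in 0 of 106 and 4 of 90. In both libraries, then, *T* was seen largely inside the cells with *Eomes*, of which most lacked *T*.

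*Mixl1* was found in 84.5% (75.8 to 91.1) of control cells with *T* and 5.80% (3.35 to 9.24) of those without. The same shares among *Yap1* cKO cells were 79.1% (71.4 to 85.6) and 10.8% (7.43 to 15.1). *Mesp2* was found largely in cells with *Mesp1*. All 34 control cells with *Mesp2* had *Mesp1*, and 52 of 59 *Yap1* cKO cells, or 88.1% (77.1 to 95.1), did. Among cells with *T*, *Gsc* was found in 72.2% (62.1 to 80.8) and 59.0% (50.3 to 67.3), with overlapping intervals.

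**Figure D4:**
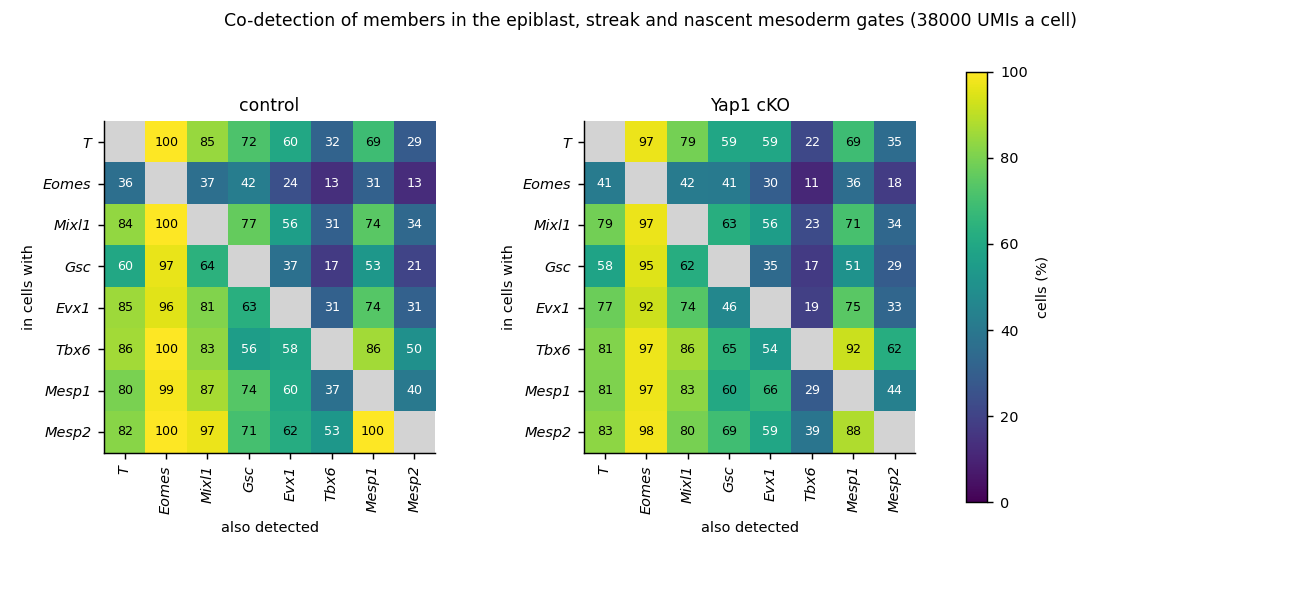
Colour and number give the percent of cells with the member named at the left that also had a UMI of the member named below, in the control (left) and *Yap1* cKO (right) libraries, after thinning to 38000 UMIs a cell. *Msgn1* is left out for its few UMIs, the *Eomes* column holds 95.6% or more in the left panel and 92.5% or more in the right, and the *Eomes* row stays at or below 42.3%.

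In thinned nascent mesoderm, 14 of 68 control and 17 of 82 *Yap1* cKO cells had *Mesp1* without *T*, against 2 of 77 and 3 of 129 in the streak gate. *T*, *Eomes*, *Mixl1* and *Mesp1* were found together in 16 of 77 control and 26 of 129 *Yap1* cKO streak-gate cells, or 20.8% (12.4 to 31.5) and 20.2% (13.6 to 28.1), and in 47 of 68 and 60 of 82 nascent mesoderm cells. The median number of members in a cell was 1 in the epiblast, 3 in the streak, 6 in nascent mesoderm and 4 in the node and endoderm gate, the same in both libraries. In the epiblast gate, 3 of 228 control cells or 1.32% (0.272 to 3.8) and 14 of 205 *Yap1* cKO cells or 6.83% (3.78 to 11.2) had at least 3 members, and the largest number was 3 and 5.

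**Figure D5:**
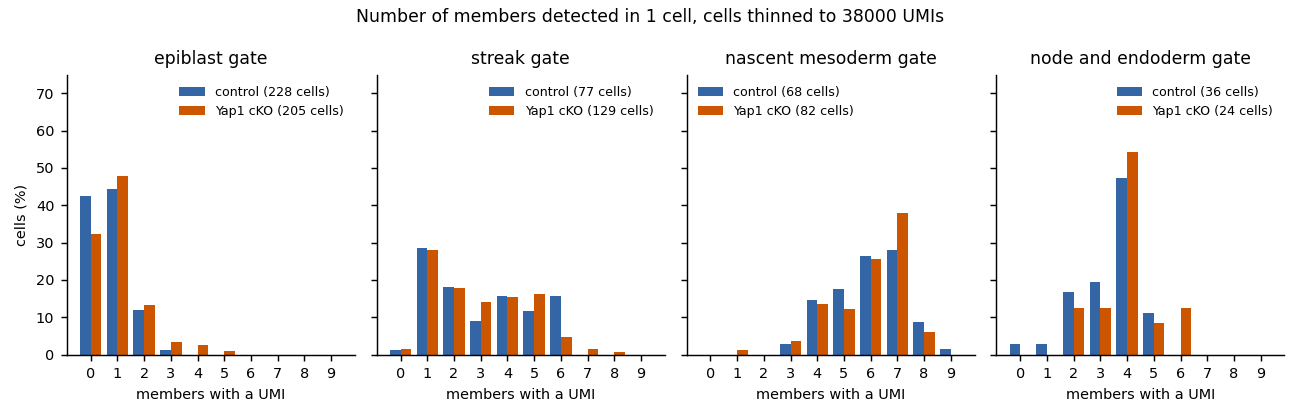
Percent of cells (vertical axis) by the number of members with a UMI in the cell (horizontal axis), in 4 gates of the control (blue) and *Yap1* cKO (orange) libraries, after thinning to 38000 UMIs. The distributions overlap in all 4 gates, and cells with 3 to 5 members in the epiblast gate are mostly of the *Yap1* cKO library.

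The genes whose levels followed each member most closely were named by Pearson correlation of log2(CPM + 1) over 18 points, the 9 populations in 2 libraries, which share libraries and depth and are not independent. *Cenpw*, *Adamts9* and *Dennd2c* followed *T* (r = 0.895, 0.890 and 0.882), and *Ube2h*, *Cplane1* and *Ttc39b* followed *Eomes* (r = 0.818, 0.816 and 0.802). For *Mixl1* they were *Tiam2*, *Dach1* and *Chst7* (r = 0.923, 0.911 and 0.888), and for *Gsc* they were *Sdk1*, *Kiz* and *Tax1bp1* (r = 0.968, 0.957 and 0.938). *Evx1os*, the overlapping antisense gene, followed *Evx1* at r = 0.982, ahead of *Gna14* and *Bmper* (r = 0.943 and 0.906). *Mesp1* was followed by *Cdh11*, *Cacna1c* and *Pdlim4* (r = 0.950, 0.913 and 0.908), *Mesp2* by *Pcdh8*, *Prss22* and the Nodal antagonist *Lefty2* (r = 0.958, 0.952 and 0.933), and *Tbx6* by *Adamtsl2*, *Gm45889* and *Pcdh19* (r = 0.932, 0.924 and 0.920). The genes nearest to *Msgn1*, *Sowahd*, *Braf* and *Hoxb1* (r = 0.881, 0.874 and 0.868), rest on its few UMIs. Among the members themselves, *Tbx6* and *Mesp2* were most alike (r = 0.873), then *Tbx6* and *Mesp1* (r = 0.862) and *T* and *Mixl1* (r = 0.838), and *Gsc* and *Msgn1* least (r = 0.110).

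A list of 30 other genes of the streak and its signals was read beside the members. In the epiblast gate 23 of them had at least 20 UMIs, of which 13 were past 1.5-fold upwards, 1 downwards and 9 were between, beside 4.42% and 6.38% of all genes, with a median ratio of 1.64 against 0.958 for all 14600 genes with at least 20 UMIs. *Foxa2*, *Dkk1*, *Cdx2* and *Lhx1* had enough UMIs only through the *Yap1* cKO library, and *Sp5* only over both libraries together. The ligands *Fgf8* at 41.8 and 169 CPM, *Nodal* at 10.5 and 26.8 CPM and *Wnt3* at 5.25 and 12.2 CPM were among the 13, with *Lefty2*, the Nodal co-receptor *Tdgf1*, the Wnt target *Axin2*, *Rspo3* and the Wnt inhibitor *Dkk1*. The study reports *Fgf8*, *Nodal*, *Wnt3* and *Axin2* as higher in the epiblast of these same pools. The list was chosen with earlier results of these data known. *Foxa2*, an endoderm factor, had 5 and 106 UMIs, a ratio of 18.8 (7.79 to 58.9), and *Fst* and *Cdx2* were at 1.85 (1.62 to 2.12) and 2.21 (1.16 to 4.45). *Sp5*, with 7 and 13 UMIs at 1.64 (0.609 to 4.86), and *Lhx1*, with 12 and 22 at 1.62 (0.769 to 3.6), completed the 13 with intervals that included 1, while *Fgf4* was lower at 5.15 and 3.15 CPM. *Sp5*, *Fst*, *Lhx1* and *Foxa2* are markers of the other gates, so that their level in the epiblast gate was limited by the gating.

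In the streak gate 1 of 24 genes of the list was past the fold upwards, *Cdx2* at 9.04 and 15.2 CPM, and *Wnt3a* and *Pdgfra* were past it downwards, beside 5.07% and 5.92% of all genes, close to the shares of the list. *Wnt3a*, at 0.605 (0.396 to 0.93), and *Pdgfra*, at 0.620 (0.315 to 1.24), are both markers of the gates. In nascent mesoderm, 2 of 27 genes of the list were past the fold upwards and 5 downwards, beside 6.43% and 5.18% of all genes. There *Nodal* at 5.26 and 8.77 CPM and *Fgf8* at 199 and 303 CPM were higher. The Notch ligand *Dll1* at 31.8 and 18.2 CPM, *Lfng* at 14.7 and 8.90 CPM and *Sox17* at 8.84 and 2.39 CPM were lower, while *Ripply2*, at 0.636 (0.317 to 1.27), and *Cdx1*, at 0.654 (0.407 to 1.05), had intervals that included 1. *Dll1*, *Cdx1* and *Sox17* are markers of the gates, and the summed mesoderm list was itself at 935 and 718 CPM in this gate. *Dll1* and *Lfng*, like *Mesp2* and *Tbx6*, belong to the genes of later somite formation, and *Mesp2* and *Tbx6* had ratios of 1.13 (0.937 to 1.37) and 0.837 (0.623 to 1.13) in the same gate.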

How the data were processed

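Embryos of 1 genotype were pooled at E7, and each pool gave 1 10x Genomics 3' library. Per the labels and methods, the authors counted reads with Cell Ranger 7.1.0 on mm10, and the deposited values are UMI counts per gene and barcode, without normalization. The libraries held 1829 control and 1897 *Yap1* cKO barcodes with 70573418 and 87937858 UMIs. Barcodes with at least 5000 detected genes (791 and 864), at most 10% mitochondrial UMIs (none removed) and no doublet call were kept. Doublets were called by scrublet in scanpy 1.11.5 on each whole library, which marked 1 and 4 of the kept barcodes. Ambient RNA was not subtracted.

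The 9 members and all lists were chosen with earlier results of these data known. Cells were gated in order on summed CPM of marker lists without members: visceral endoderm (1000 CPM, anterior if its own list passed 300), extraembryonic ectoderm (300), blood and endothelium (400), node and endoderm (300), *Foxf1* and *Hand1* mesoderm (400), nascent mesoderm (200), streak (150) and epiblast (200). Of all cells, 5 and 4 passed no gate. Gate sizes were not compared, because genes of the gates differed between the libraries. The thresholds were round numbers set on both libraries pooled, and 25 streak-gate cells lay within 1.25 times theirs. UMIs were summed per gate and library. Named genes were the members, the 3 genes most like each of them with at least 100 UMIs, and list genes past 1.5-fold. The axis score was log2 of the lists' CPM with 10 CPM added to each. Y-bearing cells had at least 2 Y-linked UMIs and no *Xist* UMI, and Xist-bearing cells the reverse. Interval and ratio steps were tested on simulated Poisson counts, which hold no spread between cells. The alternatives tried were other gene and mitochondrial limits, doublets kept, other gate thresholds and lists, Leiden clusters, a scaling by the median ratio of all genes, equal weight per cell, either sex class alone, cells without visceral endoderm transcripts, other thinning depths, 4 bins, Spearman correlation, and, chosen after seeing the data, a stricter epiblast gate, no top cell, and a visceral endoderm gate without cells past an embryonic threshold.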

Additional observations from a re-analysis of the deposited data

Results flagged for a closer look

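Several members moved in opposite directions in different embryonic populations, with counting intervals on opposite sides of 1. The difference between populations was not tested in any of these cases, since each genotype is 1 library. For *T* the ratio of *Yap1* cKO to control was 10.4 in the epiblast gate and 0.588 in the *Foxf1* and *Hand1* mesoderm. In the latter 1 cell held 25.7% of the control and 25.2% of the *Yap1* cKO *T* UMIs. For *Mixl1* the ratio was 19.5 in the epiblast and 0.621 in the streak gate, where it was 1.01 with Leiden clusters and 1.09 in Xist-bearing cells. For *Mesp1* it was 21.6 in the epiblast gate, where 1 cell held most UMIs, and 0.814 in the streak gate, where 1 control cell held 35.1% of the UMIs and the ratio without the top cells was 1.01 (0.866 to 1.19). For *Eomes* it was 2.40 in blood and endothelium, where 1 cell held 19.1% of the control and 22.1% of the *Yap1* cKO UMIs, and 0.897 in the streak gate. In the latter it was 0.987 (0.934 to 1.04) with Leiden clusters and 0.985 (0.905 to 1.07) in Xist-bearing cells, intervals that included 1. For *Gsc* it was 3.74 in blood and endothelium, from 9 and 34 UMIs, and 0.679 in the node and endoderm gate. In the epiblast gate *T*, *Mixl1* and *Mesp1* passed the minimum of 20 UMIs only through the *Yap1* cKO library and so had to differ there. *Gsc* in blood and endothelium also reached it only through that library.

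Y-bearing and Xist-bearing cells of 1 gate also moved in opposite directions for *Gsc* in the streak, with ratios of 0.497 and 1.67, and for *Mesp2* in nascent mesoderm, with 0.488 and 1.36, the former from 9 *Yap1* cKO cells. These differences were not tested either, and the cells of a class come from an unknown number of embryos.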

How the results depend on the processing

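No paired analysis was possible because each genotype has 1 library, so that a shared replicate number leaves nothing to pair. No replicate could be left out for the same reason. The summed ratio in the epiblast gate, 2.10, stayed above 1 under every alternative run. It was 1.63 with thresholds multiplied by 0.5, 1.46 with *Fgf8* and *Wnt3* in the streak list, 2.93 for Y-bearing cells, 1.65 for Xist-bearing ones, and 1.45 with 1000 CPM of the epiblast list, an alternative chosen after seeing the data. The number of members past 1.5-fold upwards there fell from 6 to 1 with that list, where *T*, *Mixl1* and *Evx1* kept ratios of 6.32, 7.59 and 3.48 on fewer than 20 UMIs, and to 1 at 1000 CPM, where 4 of the 6 members had fewer than 20 UMIs. The share of all genes past the fold was not taken under either alternative. With *Fgf8* and *Wnt3* in the streak list *Gsc* went to 0.646 (0.373 to 1.09), an interval that included 1, and was the 1 member past the fold downwards. That list removed cells by 2 genes that were themselves higher in the *Yap1* cKO epiblast gate.

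The summed ratio in the streak gate, 0.852, was 0.981 with thresholds multiplied by 0.5, 0.894 with thresholds multiplied by 2, 0.795 with *Fgf8* and *Wnt3* added, 0.977 with Leiden clusters and 0.592 in Y-bearing cells. In Xist-bearing cells it was 1.04 (0.98 to 1.11), an interval that included 1. The cause was not tested. The 1 member past the fold upwards became 2 with Leiden clusters and in Xist-bearing cells, and 0 in Y-bearing cells and at a minimum of 100 UMIs. The 2 downwards became 0 with thresholds multiplied by 0.5 and in Xist-bearing cells, 4 in Y-bearing cells, and 1 with thresholds multiplied by 2, with Leiden clusters, at a fold of 2, at 100 UMIs and without the top cell. The share of all genes was taken for these alternatives only at 100 UMIs, where 1.16% of 9478 genes were higher and 1.77% lower. *T* went to 1.16 with thresholds multiplied by 0.5 and 1.11 in Xist-bearing cells, and *Mixl1* to 1.01 with Leiden clusters and 1.09 in Xist-bearing cells. *Mesp1* went to 1.004 with thresholds multiplied by 2 and to 1.01 without the top cell. All of these had intervals that included 1, so the lower level was no longer seen. With thresholds multiplied by 0.5 *Mesp1* was at 2.75 (1.87 to 4.19), an interval above 1.

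In nascent mesoderm the summed ratio of 1.09 was 1.13 with cells weighted equally, 1.39 for Y-bearing cells and 1.13 for Xist-bearing ones. With thresholds multiplied by 0.5 it went to 0.988, with *T* at 0.976 (0.901 to 1.06), *Mixl1* at 0.977 (0.89 to 1.07) and *Mesp1* at 0.978. The intervals of *T* and *Mixl1* then included 1. In Y-bearing cells 1 member was past the fold upwards and 1 downwards, from 0 and 0, without a share of all genes to set beside them. With 4 bins the ratio in the last bin was 1.05 in place of 1.11. Of the ratios of single members, 301 moved by less than their interval, 47 by more, and 11 reversed. The 301 include settings that changed few or no cells. A mitochondrial limit of 5% and doublets kept, for example, left *T* in the epiblast gate at 10.4. Thresholds multiplied by 2 moved it to 2.54 (1.86 to 3.51). By Spearman correlation 10 of the 27 most alike genes were named again. Ratios between the libraries hold for these pools only, and members with few UMIs, *Msgn1* above all, were limited by depth.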
